A study of Saccharomyces cerevisiae with 4 samples.

Results

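The genes described here are 37 translation factor genes of budding yeast, Saccharomyces cerevisiae, chosen by name as the factors that carry out initiation, elongation and termination of protein synthesis in the cytosol. There are 25 initiation factor genes, 10 elongation factor genes and 2 termination factor genes, out of 5403 genes measured on all arrays. Each of the 37 has 1 probe and a value on every array. RNA was compared on 4 arrays with 2 colours each. On 2 of them, RNA of cells at 39 °C for 30 min was set against RNA of cells at 30 °C for the same time. On the other 2, RNA of cells given 10 µM celastrol, a plant triterpenoid, for 1 h was set against RNA of cells given DMSO, its solvent. The arrays of a treatment come from separate experiments, and every array carried its own control. The sources used here do not name the strain, the medium or the growth phase.

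Translation starts when a small ribosomal subunit carrying the initiator tRNA is brought to the capped 5′ end of an mRNA and scans to the start codon. Initiation factors load the tRNA (eIF2, recharged by eIF2B), bind the cap and unwind the leader (the eIF4 factors) and hold the subunit open for scanning (eIF1, eIF1A, eIF3). Elongation factors then deliver each aminoacyl-tRNA and move the ribosome along, and release factors free the finished protein at a stop codon. In yeast, genes of the translation apparatus are known to be repressed as part of the general response to environmental stress.

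Every value is a log2 ratio of treated over control. A value of −1 means that the gene's signal on the treated side was 0.5 of that on the control side. The treated RNA was in Cy5 on every array, so a dye effect of a probe would enter both treatments with the same sign. The ratios were scaled to the chip's median, so a change in total RNA per cell is not seen, and a change in all cells cannot be told apart from a larger change in a share of them. The median over all genes was 0.04 for heat shock replicate 1 and −0.05 for replicate 2, and it was −0.10 and −0.14 for the celastrol replicates. Replicate arrays correlated across the 37 genes with r = 0.63 after heat shock and r = 0.54 after celastrol. Over all genes the values were 0.66 and 0.85, and for the members without the gene HCR1 they were 0.70 and 0.61. These are descriptions over genes that share arrays.

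Heat shock lowered 7 of the 37 genes and raised 0, by limma at an adjusted p under 0.05. Those that fell were YEF3, EFT1, EFT2 and TEF4 among the elongation factors and TIF1, PAB1 and TIF11 among the initiation factors. The 7 make up 18.9% of the members, beside 4.79% of all genes that fell and 4.28% that rose. With quantile normalization 628 genes were lower and 359 higher, against 259 and 231 here, and 10 members were lower. By class, 4 of 10 elongation factors, 3 of 25 initiation factors and 0 of 2 termination factors fell. EFT1 and EFT2 encode the same protein from closely similar genes, so their calls may not be separate measurements. At an unadjusted p under 0.05, 14 members were lower (7 elongation, 6 initiation and 1 termination) and 0 were higher, beside 16.7% and 13.8% of all genes. That is 37.8% of the members, with 70% of the elongation factors and 24% of the initiation factors. The count of 7 at an adjusted p under 0.05 became 0 when heat shock was fitted without the celastrol data, and 0 with a robust and trended prior. Leaving out either celastrol array gives the same heat shock fit as the first of these.

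Celastrol lowered 2 of the 37 genes, YEF3 and TIF11, and raised 0. That is 5.41% of the members, beside 2.68% of all genes that fell and 3.85% that rose by limma. Among all genes this is 145 lower and 208 higher, a split that became 88 and 245 with centred arrays and 663 and 465 with quantile normalization. At an unadjusted p under 0.05, 9 members (24.3%) were lower, beside 19.8% of all genes, and 1, GCD1, was higher, beside 11.0%. The share of lower members is thus near that of all genes. The count of 2 at an adjusted p under 0.05 became 1 with each array centred on its median, which moves all ratios after celastrol up by 0.145. That adjusted count was 0 with a robust and trended prior and 10 with the celastrol arrays fitted alone. Leaving out single arrays moved it in both directions.

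**Figure D1:**
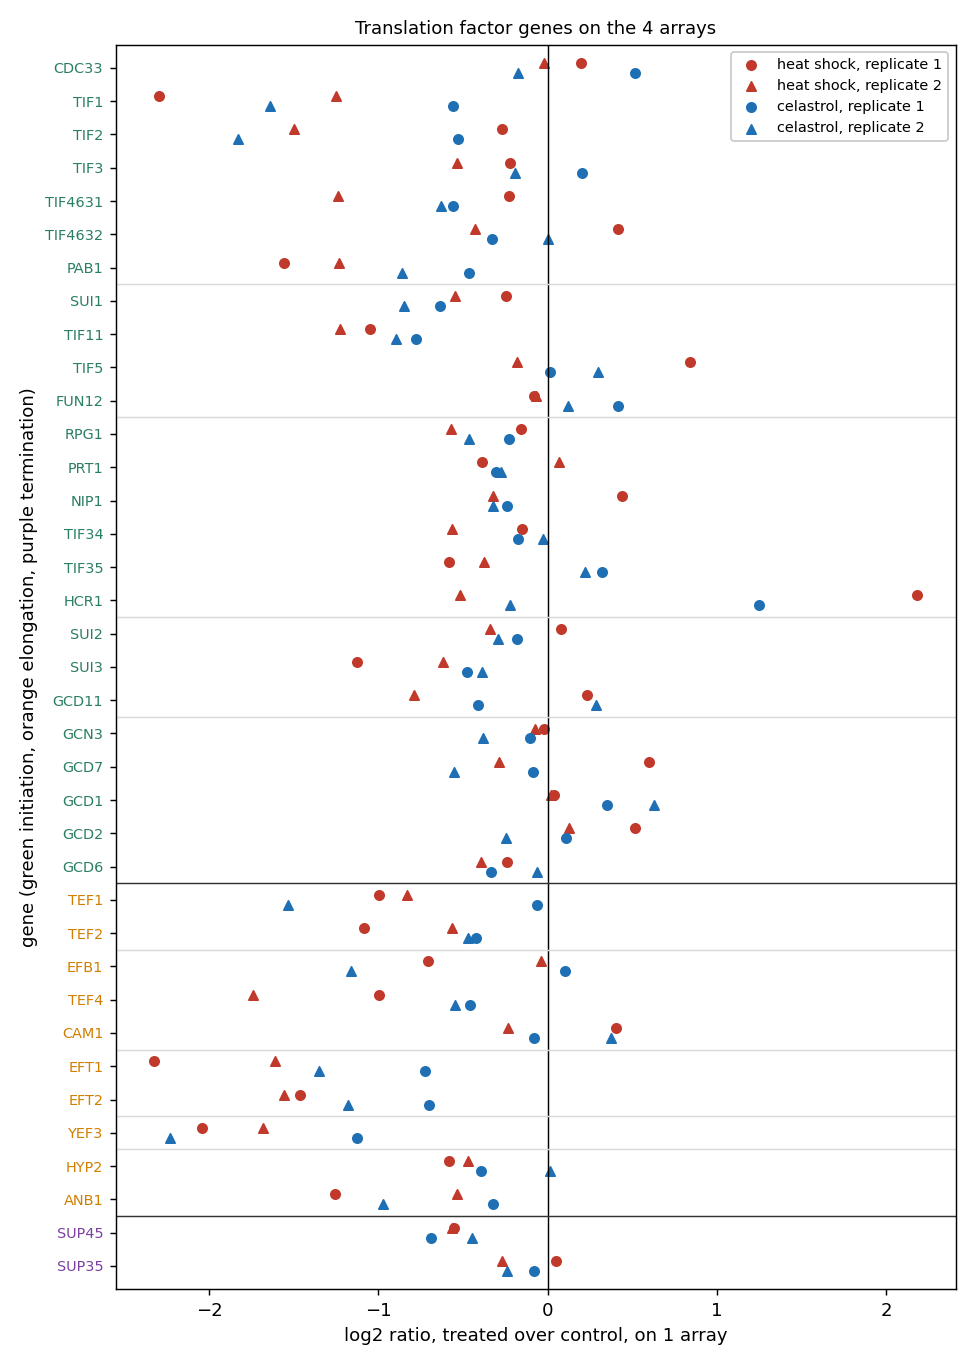
Each row is a gene and each point its log2 ratio (treated over control) on 1 array. Red marks heat shock, blue celastrol, circles replicate 1 and triangles replicate 2. YEF3, EFT1 and EFT2 lie below −0.70 on all 4 arrays. The eIF3 and eIF2B genes other than HCR1 lie nearer 0, with RPG1, TIF34, GCN3 and GCD6 below it on all 4 arrays.

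Among the elongation factors, YEF3 (YLR249W), for the fungal ATPase eEF3 that acts on the ribosome with the other factors, had one of the lowest ratios. It stood at −2.04 and −1.68 on the heat shock arrays and at −1.13 and −2.23 on the celastrol arrays. All 4 arrays were low, and the treatments overlapped. Its mean was −1.86 ± 0.26 after heat shock, 0.275 of control (limma adjusted p = 0.0286), and −1.68 ± 0.78 after celastrol, 0.312 of control (limma adjusted p = 0.0415; SD, n = 2 arrays each). YEF3 was lower than all but 3.9% and 0.8% of genes on the heat shock arrays and all but 2.6% and 1.4% on the celastrol arrays.

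EFT1 (YOR133W) and EFT2 (YDR385W) both encode eEF2, the GTPase that moves the ribosome by a codon. EFT1 was at −2.33 and −1.61 after heat shock and at −0.73 and −1.35 after celastrol. EFT2 was at −1.46 and −1.56 after heat shock and at −0.70 and −1.18 after celastrol. For both genes the heat shock arrays lay below the celastrol arrays with no overlap. After heat shock EFT1 fell to 0.255 of control (−1.97 ± 0.50) and EFT2 to 0.351 (−1.51 ± 0.07; SD, n = 2 each), with limma adjusted p = 0.0194 and 0.0180. After celastrol they stood at −1.04 ± 0.44 and −0.94 ± 0.34 (SD, n = 2 each), and neither passed, with limma adjusted p = 0.0743 and 0.0504.

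eEF1B reloads eEF1A with GTP, and its 3 genes did not move alike. TEF4 (YKL081W), for 1 form of the gamma subunit, was at −0.996 and −1.74 after heat shock and at −0.46 and −0.55 after celastrol. It fell after heat shock, to 0.387 of control (−1.37 ± 0.53, SD, n = 2; limma adjusted p = 0.0300). CAM1 (YPL048W), which encodes the other form of the gamma subunit, was at 0.40 and −0.23 after heat shock and at −0.08 and 0.37 after celastrol, on both sides of 0 in each treatment. EFB1 (YAL003W), for the catalytic alpha subunit, was at −0.71 and −0.04 after heat shock and at 0.11 and −1.16 after celastrol, with replicates far apart. Neither CAM1 nor EFB1 passed in either treatment.

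TEF1 (YPR080W) and TEF2 (YBR118W) encode eEF1A, which brings aminoacyl-tRNA to the ribosome. TEF1 was at −0.998 and −0.83 after heat shock and at −0.06 and −1.53 after celastrol. TEF2 was at −1.09 and −0.56 after heat shock and at −0.42 and −0.47 after celastrol. Both were below 0 on all 4 arrays, yet the means after heat shock, −0.92 ± 0.12 and −0.82 ± 0.37 (SD, n = 2), did not pass, with limma adjusted p = 0.165 and 0.0603. The celastrol arrays of TEF1 lay 1.47 log2 units apart, and that gap enters the spread used for both treatments.

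HYP2 (YEL034W) and ANB1 (YJR047C) encode eIF5A, the hypusine-bearing factor that helps stalled ribosomes on; HYP2 is the aerobic form and ANB1 the form of low oxygen. HYP2 was at −0.58 and −0.47 after heat shock and at −0.39 and 0.01 after celastrol. ANB1 was at −1.26 and −0.53 after heat shock and at −0.32 and −0.97 after celastrol. Neither passed in either treatment, with limma adjusted p = 0.124 and 0.0981 for heat shock and 0.518 and 0.173 for celastrol.

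Of the initiation factors, the cap and poly(A) group held the largest decreases. PAB1 (YER165W), for the poly(A)-binding protein that joins the mRNA tail to eIF4G, was at −1.56 and −1.23 after heat shock and at −0.46 and −0.86 after celastrol, with no overlap between treatments. It fell to 0.381 of control after heat shock (−1.39 ± 0.23, SD, n = 2; limma adjusted p = 0.0204). After celastrol it stood at −0.66 ± 0.28 (SD, n = 2) and did not pass, at limma adjusted p = 0.0918.

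TIF1 (YKR059W) and TIF2 (YJL138C) encode the same protein, the RNA helicase eIF4A. TIF1 was at −2.30 and −1.25 after heat shock and at −0.56 and −1.64 after celastrol. TIF2 was at −0.27 and −1.50 after heat shock and at −0.53 and −1.83 after celastrol. TIF1 fell after heat shock to 0.292 of control (−1.77 ± 0.74, SD, n = 2), at limma adjusted p = 0.0489, just inside the threshold. TIF2 did not pass after heat shock (−0.88 ± 0.87, SD, n = 2; limma adjusted p = 0.221). Without heat shock replicate 1 the ratio of TIF1 was −1.25 and the call was lost (limma adjusted p = 0.0911).

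TIF4631 (YGR162W) and TIF4632 (YGL049C) encode the eIF4G scaffolds. TIF4631 was at −0.23 and −1.24 after heat shock and at −0.56 and −0.63 after celastrol, below 0 on all 4 arrays. TIF4632 was at 0.42 and −0.43 after heat shock and at −0.33 and 0.01 after celastrol, on both sides of 0. CDC33 (YOL139C), for the cap-binding protein eIF4E, was at 0.20 and −0.02 after heat shock and at 0.51 and −0.17 after celastrol. TIF3 (YPR163C), for eIF4B, had means of −0.38 ± 0.22 after heat shock and 0.01 ± 0.28 after celastrol (SD, n = 2). None of these 4 genes passed in either treatment.

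TIF11 (YMR260C), for eIF1A, which binds the decoding site of the small subunit during scanning, fell after both treatments. It was at −1.05 and −1.23 after heat shock and at −0.78 and −0.90 after celastrol. Its replicates lay close together, and the treatments did not overlap. The means were −1.14 ± 0.13, 0.454 of control, and −0.84 ± 0.08, 0.56 of control (SD, n = 2), with limma adjusted p = 0.0206 and 0.0450. With each array centred on its median the ratio after celastrol was −0.69 and no longer passed, at limma adjusted p = 0.0631.

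The other factors that act with eIF1A at the start codon had values nearer 0. SUI1 (YNL244C), for eIF1, was at −0.25 and −0.55 after heat shock and at −0.63 and −0.85 after celastrol, lower after the drug with no overlap, and passed in neither treatment. TIF5 (YPR041W), for the GTPase-activating factor eIF5, was at 0.84 and −0.18 after heat shock and at 0.01 and 0.30 after celastrol. FUN12 (YAL035W), for the subunit-joining GTPase eIF5B, was at −0.08 and −0.07 after heat shock and at 0.41 and 0.12 after celastrol. Neither TIF5 nor FUN12 passed in either treatment.

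The 6 genes of eIF3, the large scaffold of the small subunit, were not called in either treatment. RPG1, PRT1, NIP1, TIF34 and TIF35, for subunits a, b, c, i and g, had means from −0.48 to 0.06 after heat shock and from −0.34 to 0.27 after celastrol. TIF35 (YDR429C) was at −0.58 and −0.37 after heat shock and at 0.32 and 0.22 after celastrol, with opposite signs in the treatments. Of the 37 genes, FUN12 was the other one below 0 on both heat shock arrays and above 0 on both celastrol arrays. HCR1 (YLR192C), for the loosely bound subunit j, was at 2.19 and −0.52 after heat shock and at 1.25 and −0.22 after celastrol. Its means, 0.83 ± 1.91 and 0.51 ± 1.04 (SD, n = 2), were the highest of the 37 in both treatments, and neither passed, with limma adjusted p = 0.455 and 0.664. The replicate arrays of HCR1 thus had opposite signs in each treatment. Without heat shock replicate 2, HCR1 and TIF5 were called higher after heat shock (2.19 and 0.84), on the value of the remaining heat shock array alone.

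eIF2, which carries the initiator tRNA, and eIF2B, the exchange factor that phosphorylated eIF2 inhibits, had no called member. SUI3 (YPL237W), for eIF2 beta, came nearest, at −1.13 and −0.62 after heat shock and at −0.47 and −0.39 after celastrol (limma adjusted p = 0.0537 and 0.196). SUI2, for eIF2 alpha, and GCD11, for eIF2 gamma, had heat shock means of −0.13 ± 0.30 and −0.28 ± 0.72 (SD, n = 2). Their celastrol means were −0.24 ± 0.08 and −0.06 ± 0.50 (SD, n = 2). The 5 eIF2B genes GCN3, GCD7, GCD1, GCD2 and GCD6 lay within −0.32 to 0.32 after heat shock and −0.32 to 0.49 after celastrol as means over 2 arrays. Their single arrays reached from −0.39 to 0.60 after heat shock and from −0.55 to 0.63 after celastrol. GCD1 (YOR260W), for eIF2B gamma, was at 0.04 and 0.02 after heat shock and at 0.35 and 0.63 after celastrol, the only member above 0 on all 4 arrays (limma adjusted p = 0.118 after celastrol).

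The 2 termination factors, SUP45 and SUP35, were called in neither treatment. SUP45 (YBR143C), for eRF1, which reads the stop codon, was at −0.55 and −0.56 after heat shock and at −0.69 and −0.45 after celastrol. All 4 arrays lay below 0 and the means were −0.56 and −0.57, with limma adjusted p = 0.0931 and 0.0897. SUP35 (YDR172W), for the GTPase eRF3, was nearer 0, at 0.05 and −0.27 after heat shock and at −0.08 and −0.24 after celastrol.

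Over the classes, elongation factors had the lowest median on 4 of 4 arrays. Their median was −1.04 and −0.70 after heat shock, and it was −0.41 and −1.06 after celastrol. That of initiation factors was −0.15 and −0.43 after heat shock, with −0.22 and −0.27 after celastrol. For termination factors the medians were −0.25, −0.42, −0.38 and −0.34 in the same order. The elongation median minus the initiation median was −0.89 and −0.27 after heat shock, against −0.18 and −0.79 after celastrol, so the gap was uneven between replicates. The wider gaps were on heat shock replicate 1 and celastrol replicate 2. Their SD over all probes was 0.94 and 0.81, against 0.58 for heat shock replicate 2 and 0.60 for celastrol replicate 1. These medians and gaps are a description with no test, since members are not replicates. Members within a class differed more than the classes did, with mean ratios after heat shock from −1.97 to 0.08 in elongation and from −1.77 to 0.83 in initiation. Ribosomal protein genes, 129 by symbol, stood at a median of −1.79 and −1.44 after heat shock, with −0.66 and −1.51 after celastrol, lower than each of the 3 classes on every array.

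**Figure D2:**
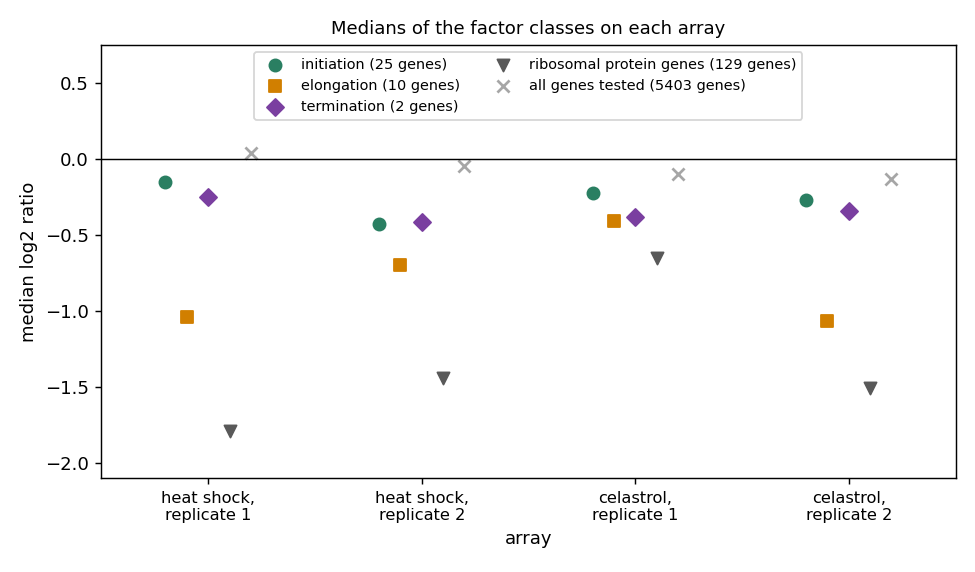
Median log2 ratio (y axis) on each array (x axis) for the 3 factor classes, ribosomal protein genes and all genes tested. Elongation factors lie below initiation factors on each array, with differences between −0.89 and −0.18.

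Of the 37 members, 24 were below 0 on both heat shock arrays, beside 36.7% of all genes, and 24 on both celastrol arrays, beside 49.6%. In all 19 were below 0 on all 4 arrays, beside 27.4%. Among elongation factors it was 7 of 10, among initiation factors 11 of 25, and among termination factors 1 of 2. The members TIF1, TIF2, PAB1, EFT1, EFT2 and YEF3 had every ratio below 0 and a mean over the 4 arrays no higher than −1, as did 6.61% of all genes. A gene low on every array could carry a dye effect of its probe, and whether these do was not tested.

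The pairs of like genes give a view of how far probes with near-identical targets agree. TIF1 and TIF2, TEF1 and TEF2, and EFT1 and EFT2 encode identical proteins from closely similar reading frames, so their probes can pick up each other's RNA, which makes each gene's own value uncertain. EFT1 minus EFT2 was −0.86 on heat shock replicate 1 and between −0.17 and −0.02 on the other 3 arrays. TIF1 minus TIF2 was −2.03 on heat shock replicate 1 and between −0.03 and 0.25 on the other 3 arrays. TEF1 minus TEF2 was −1.07 on celastrol replicate 2 and between −0.27 and 0.36 on the other arrays. For each of these pairs 1 array thus held most of the disagreement, and it was heat shock replicate 1 for 2 of the 3. Heat shock replicate 1 and celastrol replicate 2 also had the largest SD over all probes, 0.94 and 0.81. Whether the spread of an array enters these differences was not tested.

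The less similar pairs behaved otherwise. TEF4 was lower than CAM1 on all 4 arrays, with TEF4 minus CAM1 at −1.40 and −1.51 after heat shock and at −0.38 and −0.92 after celastrol. TIF4631 was lower than TIF4632 on all 4 arrays, with the difference at −0.64 and −0.81 after heat shock and at −0.23 and −0.63 after celastrol. HYP2 minus ANB1 was 0.68 and 0.06 after heat shock, against −0.07 and 0.98 after celastrol, with no common sign. Differences between the genes of a pair were not tested.

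**Figure D3:**
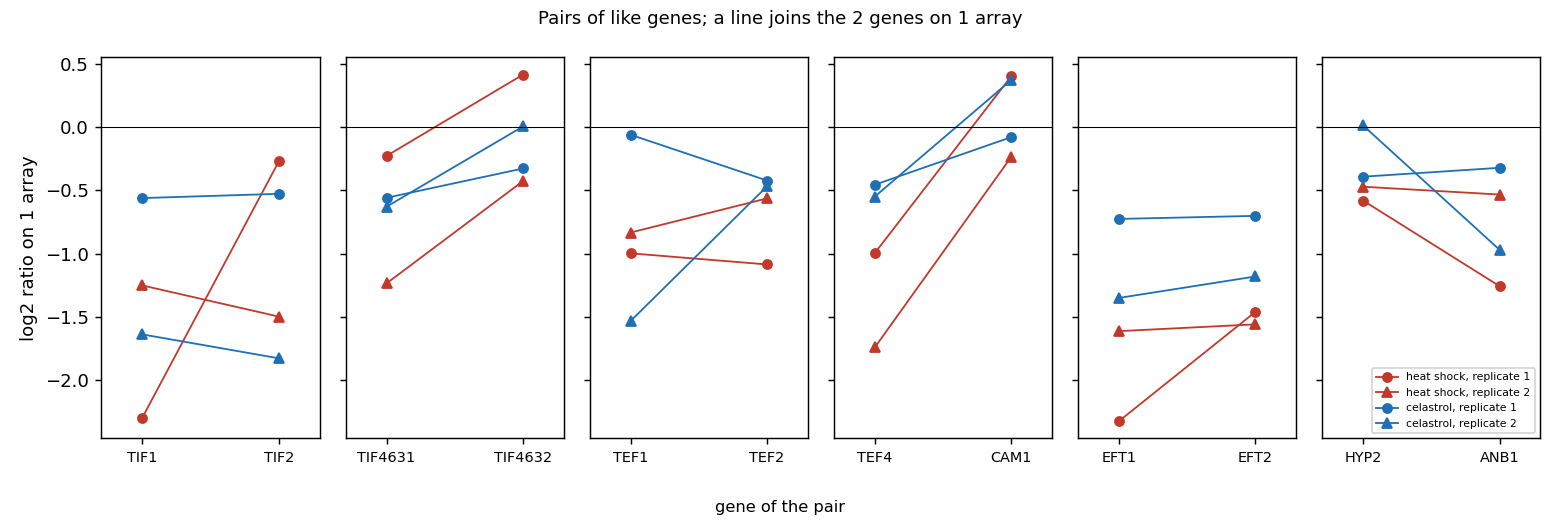
Log2 ratio (y axis) of the genes of 6 pairs, with a line joining the genes on each array. Lines for EFT1 and EFT2 are nearly flat on 3 arrays, the line of TIF1 and TIF2 on heat shock replicate 1 rises by 2.03, and all lines rise from TEF4 to CAM1.

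Between the treatments 0 of the 37 members differed by limma at an adjusted p under 0.05, where 1.11% of all genes did. With an unadjusted p under 0.05 there were 4 (10.8%), namely TIF35, PAB1, TEF4 and EFT1, each with a higher ratio after celastrol. Of all genes 13.7% had such a p, so the count among the members is no larger than the background. The difference, celastrol minus heat shock, was 0.75 for TIF35 (95% interval 0.19 to 1.32), 0.73 for PAB1 (0.06 to 1.40), 0.87 for TEF4 (0.06 to 1.67) and 0.93 for EFT1 (0.01 to 1.86). Their limma adjusted p-values were 0.251, 0.333, 0.333 and 0.362. For YEF3 the difference was 0.18 with an interval from −0.89 to 1.25, and for TIF11 0.30 with an interval from −0.26 to 0.86. The smallest difference called for any gene was 1.65 log2 units, and the largest of a member was 0.93, so with 2 arrays a treatment no gene was called on a difference as small as these.

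Both celastrol arrays lay above both heat shock arrays for 12 of the 37 members, beside 18.1% of all genes, and below them for 3, beside 28.9%. The 12 included 5 of the 10 elongation factors, TEF2, TEF4, EFT1, EFT2 and HYP2, and 7 initiation factors, TIF3, PAB1, TIF11, FUN12, TIF35, SUI3 and GCD1. The 3 were SUI1, GCN3 and GCD2. Across the 37 genes the mean ratios of the treatments correlated with r = 0.83, beside 0.57 over all genes. This is a description over genes that share arrays and dye orientation.

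**Figure D4:**
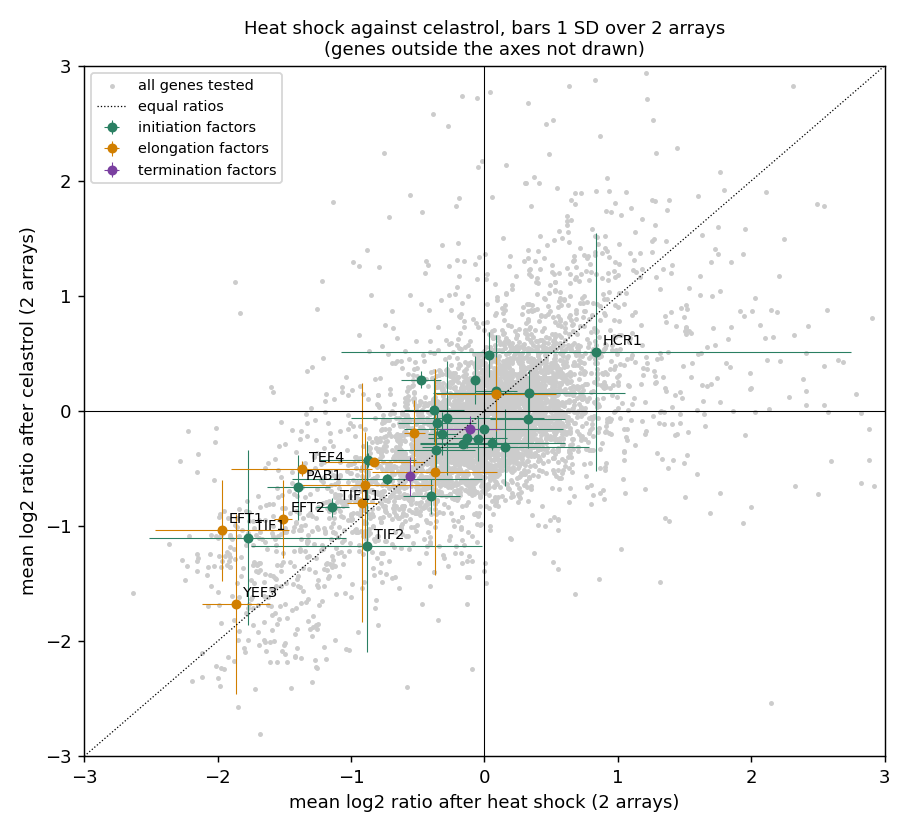
Mean log2 ratio after heat shock (x axis) and after celastrol (y axis), with bars of 1 SD over 2 arrays. Grey points are all genes tested, and YEF3, EFT1, TIF1 and EFT2 lie at the lower left while HCR1 has the widest bars.

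**Figure D5:**
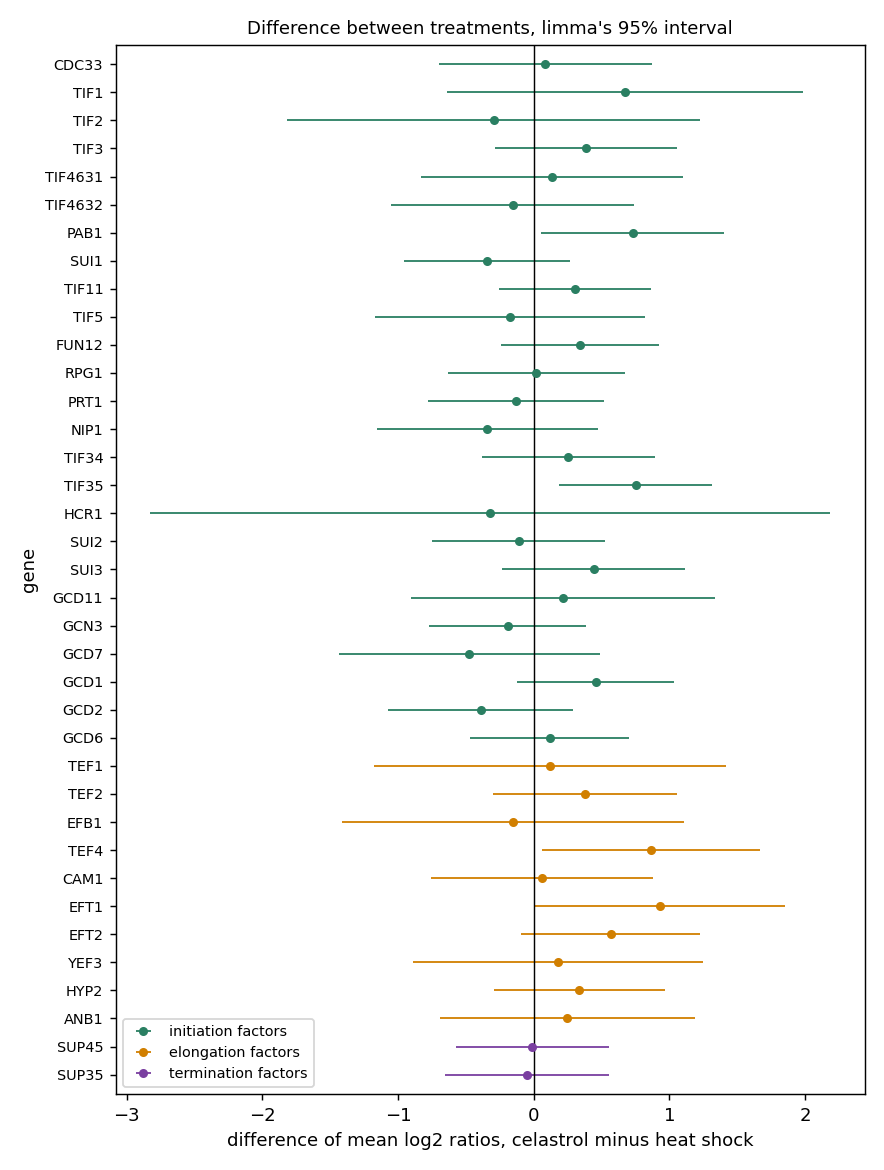
Difference of mean log2 ratios, celastrol minus heat shock (x axis), for each gene (y axis), with limma's 95% interval. The intervals of TIF35, PAB1, TEF4 and EFT1 lie above 0, and that of HCR1 is the widest, from −2.83 to 2.19.

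Genes that act beside these factors were listed from textbook knowledge, and 45 of 50 had a probe of their own. Of 16 accessory and regulatory genes of initiation, 2 (12.5%) fell after heat shock, beside the 4.79% of all genes, and 0 rose. They were CAF20 (YOR276W), at −1.12 and −1.07, and EAP1 (YKL204W), at −1.11 and −1.14, both for proteins that bind eIF4E and keep eIF4G from it, with limma adjusted p = 0.0211 and 0.0350. After celastrol CAF20 was at −0.72 and −0.83 (limma adjusted p = 0.0504) and did not pass, while EAP1, at −0.77 and −1.34, fell (limma adjusted p = 0.0449). The call of EAP1 after celastrol was lost with centred arrays (limma adjusted p = 0.0569), with zeros kept (0.0501) and with a robust and trended prior (0.103). CDC33, for the eIF4E that both bind, was called in neither treatment.

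SBP1 (YHL034C), for an RNA-binding protein that can bind eIF4G and repress translation, was at −0.53 and −0.43 after heat shock and at 1.001 and 0.86 after celastrol. It rose after celastrol (0.93 ± 0.10, SD, n = 2, limma adjusted p = 0.0371). That is 1 of 16 in this list (6.25%), beside 3.85% of all genes. The difference between treatments was 1.41 and did not pass, at limma adjusted p = 0.0648.

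Of 12 genes that modify or assist elongation factors, 2 (16.7%) fell after heat shock and 0 rose. DYS1 (YHR068W), for deoxyhypusine synthase, which begins the modification of eIF5A, was at −1.05 and −1.12 (limma adjusted p = 0.0470). TMA19 (YKL056C), for a ribosome-associated protein related to the human tumour protein TCTP, was at −1.28 and −1.06 (limma adjusted p = 0.0377). Without heat shock replicate 1 both calls were lost, each at limma adjusted p = 0.0695, and with array weights they were lost at 0.099 and 0.0778. After celastrol 0 of 12 were called by limma, while all 12 were below 0 on both celastrol arrays, beside 49.6% of all genes, and 5 (41.7%) were lower at an unadjusted p under 0.05, beside 19.8%. Of 11 genes of termination, ribosome rescue and nonsense-mediated decay, 0 were called by limma in either treatment, with 0 at an unadjusted p under 0.05 after heat shock and 1 after celastrol. The median ratios of the 3 lists after heat shock were −0.13, −0.17 and 0.16, beside 0.005 over all genes. After celastrol they were −0.04, −0.52 and −0.16, beside −0.11.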

How the data were processed

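The authors deposited 1 log2 ratio of treated (Cy5) over control (Cy3) per probe and array. Per the labels of the series, repeat spots were averaged and scaled to the median signal of their chip. The sources used here do not give the software, background correction or spot filter. Base 2 was inferred from heat shock replicate 1, where 1915 matches to log2 ratios of whole numbers up to 20 were found and 3 to natural logs. It was assumed for the other 3 arrays. Exact zeros (44, 47, 7 and 4) were taken as missing. Of 6415 probes, 5619 name a single gene in GEO's platform annotation, and probes of a gene were averaged. Coordinates are left out because no build is named.

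The model used limma 3.58.1 (R 4.3.3), with 1 mean per treatment over 4 arrays, 2 residual degrees of freedom and Benjamini-Hochberg adjustment over 5403 genes. Calls needed an adjusted p under 0.05, and "rose" and "fell" refer to called genes. The script was tested on simulated data. Values were printed for called members, the 2 highest and 2 lowest of each treatment, pairs of like genes, and others where they show a complex. From each other list, called genes and at most 4 more per treatment, by size of the mean ratio, could be named. Alternatives were other scalings, zeros kept, a looser filter, probe medians, array weights, separate fits, another prior, a replicate block and leaving out each array. Members, classes and lists were chosen with earlier results of these data known. The number of arrays limits the precision.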

Additional observations from a re-analysis of the deposited data

How the results depend on the processing

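The 37 genes were refitted under 14 other settings, of which each separate fit covers its own treatment only. No called change reversed. After heat shock 490 genes were called, against 987 with quantile normalization, 216 with array weights, 223 with a robust and trended prior, 30 with a replicate block and 0 with the heat shock arrays alone (1154 at an unadjusted p under 0.05). After celastrol 353 were called, against 1128 with quantile normalization, 1243 with array weights, 1479 with the celastrol arrays alone and 65 with the block. Between treatments 60 were called, against 145 with quantile normalization, 112 with the robust and trended prior and 0 with the block (524 at an unadjusted p under 0.05).

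Members that fell after heat shock numbered 7, and 0 with the heat shock arrays alone, the robust and trended prior or the replicate block. With array weights TIF1 and YEF3 were lost, and with exact zeros kept or genes of 1 value per treatment TIF1 was. Members that fell after celastrol numbered 2, and 1 with median-centred arrays, 6 with quantile normalization, 7 with array weights, 10 with the celastrol arrays alone and 0 with the robust and trended prior or the block. No member differed between treatments in any setting by limma. Of the called genes outside the members, CAF20, EAP1, DYS1 and TMA19 after heat shock were lost with heat shock fitted alone, the robust and trended prior or the block. With array weights EAP1 (limma adjusted p = 0.0732), DYS1 and TMA19 were lost, and with zeros kept DYS1 (0.0535). After celastrol EAP1 (0.114), SBP1 (0.118) and MEF2 (0.0559) were lost with the block.

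Leaving out 1 array gave 0 to 10 members lower and 0 to 2 higher after heat shock, and 0 to 11 lower after celastrol. Over all genes it gave 0 to 1557 calls after heat shock, 0 to 1502 after celastrol and 0 to 537 between treatments, with 0 whenever a celastrol array was left out; between treatments there were 160 without heat shock replicate 1 and 537 without replicate 2. With 1 array left out, the fit takes its spread from the 2 arrays of the other treatment, and a lone array is assumed to vary like them. For heat shock, leaving out a celastrol array thus gives the same fit as the heat shock arrays alone. Why the counts moved under scaling, array weights, the other prior or the block was not tested. The median of initiation factors after celastrol, −0.24, was −0.0923 with centred arrays, −0.18 with quantile normalization and −0.27 to −0.22 without 1 array. That of elongation factors, −0.59, was −1.06 to −0.41 without 1 array, and that of termination factors, −0.36, was −0.22 with centred arrays and −0.38 to −0.34 without 1. Replicate numbers are shared by the treatments only as numbers, since the experiments were run independently, and differences between same-numbered arrays correlated with r = −0.31 over genes.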

Other observations

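Mitochondria have translation factors of their own, and 6 of the 9 listed had a probe of their own. MEF2 (YJL102W), for a GTPase that recycles mitochondrial ribosomes, was at 0.68 and 0.62 after heat shock and at 1.52 and 1.81 after celastrol, higher after the drug with no overlap. It rose after celastrol to 3.17-fold of control (1.66 ± 0.20, SD, n = 2, limma adjusted p = 0.0130). MEF2 and SBP1 were the 2 called rises among the 82 translation genes measured, beside 3.85% of all genes that rose after celastrol. For MEF2 the difference between treatments was 1.02 and did not pass, at limma adjusted p = 0.153. MEF1, IFM1, AIM23 and GUF1 had means between −0.07 and 0.35 in both treatments. FMT1, for the enzyme that formylates the initiator tRNA, was at −1.58 and −0.80 after heat shock and at −0.98 and −1.68 after celastrol, below 0 on all 4 arrays and called in neither treatment (limma adjusted p = 0.0617 and 0.0558).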
